A study of Homo sapiens with 8 samples.

Results

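The genes described here are the 41 genes of the Polycomb group and of the enzymes that reverse its histone marks. They were chosen by name, as subunits of the complexes, and comprise 12 genes of Polycomb repressive complex 2 (PRC2), 23 genes of Polycomb repressive complex 1 (PRC1) and 6 eraser genes. All 41 were found by Ensembl identifier among the 69215 genes listed, and 39 were among the 15931 genes with enough reads to be tested. RNA was sequenced from G401, an established kidney rhabdoid tumor line without SMARCB1, a core subunit of the SWI/SNF chromatin remodelling complexes, and the study asked how restoring SMARCB1 alters the RNA and translation of these cells. All 4 groups were G401 cells with a doxycycline (Dox) inducible transgene. They were SMARCB1 DMSO and SMARCB1 Dox, in which the transgene encodes SMARCB1, and GFP DMSO and GFP Dox, in which it encodes GFP, so that the GFP line controls for Dox and for an induced foreign protein. Dox was given at 0.1 µg/ml for 12 h, and the other groups received the solvent. Each group had 2 libraries. According to the study's methods, several plates per condition were pooled at harvest and the experiments were done in duplicate. The methods do not describe further how the duplicates were set up. The labels do not say whether the inducible lines are single clones, nor whether the libraries of a group came from separate cultures, so p-values measure only the spread between these libraries, which may be technical.

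Polycomb proteins keep developmental genes silent. PRC2 methylates histone H3 at lysine 27 (H3K27) through EZH1 or EZH2, and PRC1 attaches ubiquitin to histone H2A through RING1 or RNF2. KDM6A and KDM6B remove the H3K27 methyl groups, and BAP1, together with an ASXL protein, removes the ubiquitin from H2A. SWI/SNF complexes are known to oppose Polycomb on chromatin, and in rhabdoid tumors, which lack SMARCB1, EZH2 is a known drug target.

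Library totals ran from 29632090 to 37597477 reads assigned to genes. SMARCB1 itself had 10 and 21 reads with DMSO and 30474 and 29383 with Dox in its own line, and 0 in the 4 GFP libraries. The high counts thus lay in the libraries that the labels name as SMARCB1 with Dox, and a few reads were present without induction. VIM, KRT8 and KRT18, which rhabdoid cells express, had at least 7408 reads in every library, whereas none of PTPRC, CD3E, PECAM1, CDH5 and ALB, which mark blood, endothelial and liver cells, had more than 16. Mitochondrially encoded genes took 18.9% to 21.5% of the reads in the GFP libraries, against 22.9% and 21.3% in SMARCB1 Dox and 27.9% and 23.9% in SMARCB1 DMSO. SMARCB1 DMSO replicate 1 stood highest in that share.

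BMI1 and RYBP were the genes of the 39 whose Dox effect differed between the lines, and PCGF5 had the largest difference between the lines without Dox. BMI1, also known as PCGF4, a PCGF subunit of canonical PRC1, fell upon SMARCB1 induction. RYBP, the subunit that replaces CBX proteins in variant PRC1, rose. PCGF5, the PCGF subunit of a variant PRC1, was present in the SMARCB1 line and nearly absent from the GFP line. The 300 bases around the RefSeq start of these 3 genes, 250 before it and 50 after, are shown because their RNA moved in opposite directions or split the lines. The bases are those of GRCh38.p14, 5′ to 3′ on the strand of the gene. BMI1 lies on the plus strand (promoter chr10:22320849-22321148, gene chr10:22321099-22331484), RYBP on the minus strand (promoter chr3:72446574-72446873, gene chr3:72371825-72446621) and PCGF5 on the plus strand (promoter chr10:91162762-91163061, gene chr10:91163012-91284337). Capitals mark CACGTG, the E-box bound by MYC and related factors.
BMI1: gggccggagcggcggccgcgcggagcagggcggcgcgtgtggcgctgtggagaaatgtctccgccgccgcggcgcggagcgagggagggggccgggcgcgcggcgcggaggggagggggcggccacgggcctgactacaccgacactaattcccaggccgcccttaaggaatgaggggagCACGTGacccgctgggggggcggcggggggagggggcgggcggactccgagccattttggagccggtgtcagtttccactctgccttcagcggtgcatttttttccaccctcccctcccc
RYBP: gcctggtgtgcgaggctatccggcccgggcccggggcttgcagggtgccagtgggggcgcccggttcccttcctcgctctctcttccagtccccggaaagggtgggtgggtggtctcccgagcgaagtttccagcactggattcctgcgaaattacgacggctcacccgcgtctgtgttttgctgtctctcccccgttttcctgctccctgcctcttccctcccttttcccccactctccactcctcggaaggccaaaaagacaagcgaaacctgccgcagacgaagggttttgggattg
PCGF5: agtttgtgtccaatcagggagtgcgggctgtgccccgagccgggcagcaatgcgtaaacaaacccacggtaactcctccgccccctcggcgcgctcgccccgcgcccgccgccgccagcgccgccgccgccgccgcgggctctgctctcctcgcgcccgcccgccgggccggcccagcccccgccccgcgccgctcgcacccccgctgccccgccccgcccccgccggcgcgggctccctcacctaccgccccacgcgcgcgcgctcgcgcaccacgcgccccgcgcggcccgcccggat
All 3 windows held more CpG than most, with 36 CpG dinucleotides for BMI1, 20 for RYBP and 55 for PCGF5. The median was 14 over all 35116 RefSeq promoter windows and 30 over the windows of the Polycomb and eraser genes. RYBP thus lay below the median of these genes, and a high CpG count was not particular to the 3. CACGTG, which reads the same on both strands, occurred in the BMI1 window, 70 bases before the start, and not in those of RYBP and PCGF5. Of the 37 Polycomb and eraser genes with a window, 8 held it (RBBP4, CBX6, BMI1, PHC2, PHC3, YAF2, BCOR and KDM6A), or 21.6%, against 7.26% of all windows. The GC box GGGCGG, searched on both strands, was in 73.0% of these windows against 45.0% of all, and their median GC content was 69.7% against 58.7%. The CCAAT box, also searched on both strands, was in 40.5% against 34.6%. Of the other motifs searched, TGACGTCA (CRE) was in 2.70% against 1.85%, and TGANTCA (AP-1) in 2.70% against 7.71%. A match is a description of the letters and says nothing of binding.

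Levels are given as CPM, counts on a common depth scale after TMM normalization, and levels of different genes are compared per kilobase of exon (CPM per kb). By that measure BMI1 was the highest of the 39 genes, with a mean of 70.5 CPM per kb over the 8 libraries, above 97.7% of all genes tested. RNF2 followed at 28.8, RBBP4 at 28.5 and SUZ12 at 19.2 CPM per kb. EZH2, the main H3K27 methyltransferase of dividing cells, ranked 20 of the 39 at 5.85 CPM per kb and EZH1, its relative in resting cells, ranked 31 at 2.12. At the low end stood PCGF5 at 0.580, CBX7 at 0.471 and CBX8 at 0.293 CPM per kb. Of the 39 genes, 29 lay above the median of all genes tested. EPOP, an accessory PRC2 subunit, had 0 reads in all 8 libraries, and ASXL3, an ASXL gene, had 1 read in 1 library. The floor of 3 counts over all 8 libraries corresponds to 0.0110 CPM and covers counting error only. Exon bases shared with overlapping genes bear on some ranks, since PCGF2 moved from rank 16 to rank 5 when only its unshared exon bases (38.5%) were counted as its length.

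**Figure D1:**
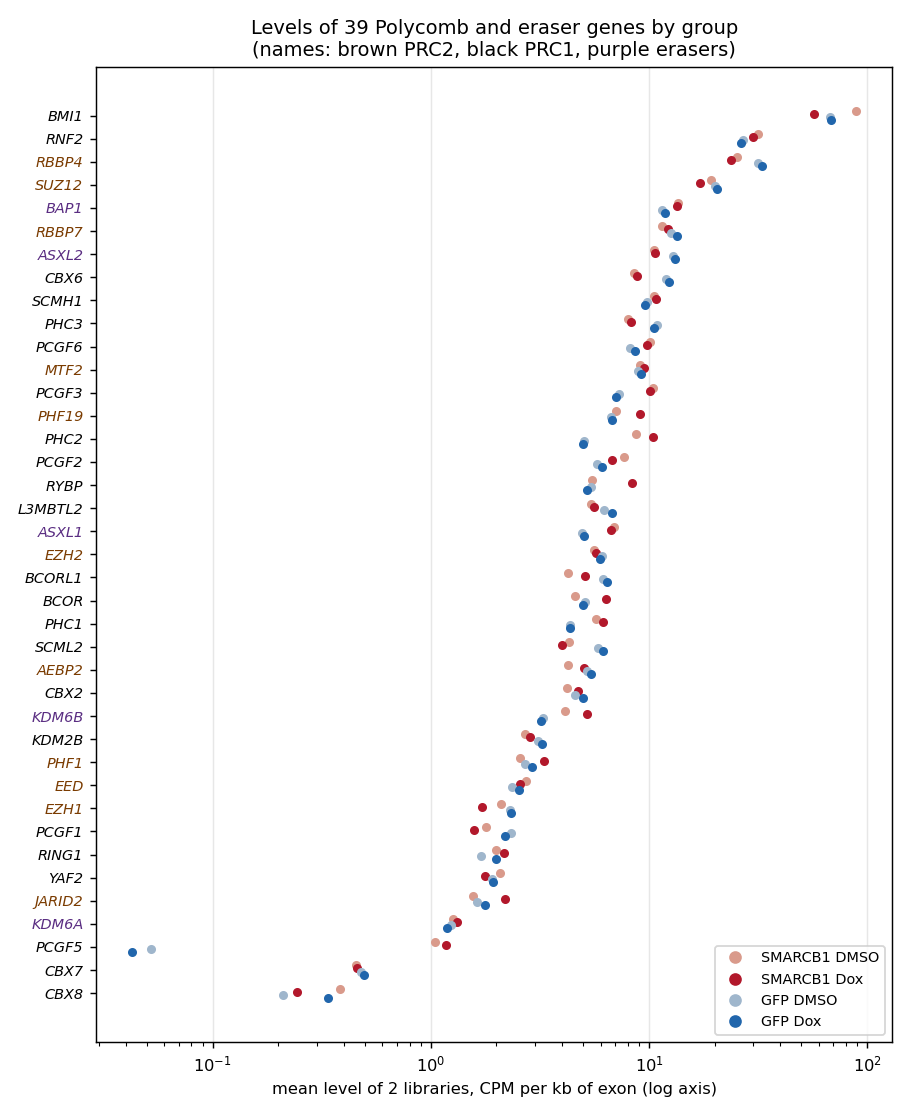
Mean level of each of the 39 tested genes in the 4 groups, in CPM per kb of exon on a log axis, ordered by the mean over all 8 libraries. Each dot is the mean of 2 libraries; BMI1 stands at the top with a mean of 70.5 CPM per kb, and PCGF5 splits into SMARCB1 and GFP groups.

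Upon SMARCB1 induction, 5 Polycomb genes changed. At an adjusted p under 0.05 (Benjamini-Hochberg), edgeR called 5 of the 39 genes (12.8%), 4 higher and 1 lower, against 14% of all genes tested (8.33% higher and 5.69% lower). The number depended on the scaling and on single libraries. With library totals in place of TMM, 10 of the 39 (25.6%) were called where 15.6% of all genes were, and without SMARCB1 DMSO replicate 1 or SMARCB1 Dox replicate 1 it was 3 (7.69%) where 8.77% and 7.79% of all genes were. Before adjustment, 13 of the 39 had a p under 0.05, against 26% of all genes. RYBP, BCOR, PHF19 and JARID2 rose and BMI1 fell. The median log2 fold change of the 39 genes was 0.05, against -0.00 for all genes, and their median absolute log2 fold change was 0.109 against 0.189. In the GFP line, Dox gave no call among the 39 genes by edgeR, where 0% of all genes were called. None of the 39 had an unadjusted p under 0.05 there and DESeq2 called 0, while 266 of all 15931 genes (1.67%) had an unadjusted p under 0.05. The SMARCB1 Dox libraries did not overlap the SMARCB1 DMSO libraries in 24 of the 39 genes, 14 higher and 10 lower, where 25.9% and 25.2% of all genes did so, and in the GFP line this held for 10 and 3 genes, where 13.6% and 13.2% of all genes did so. In bulk RNA, fewer cells that express a gene and less RNA per cell cannot be told apart.

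**Figure D2:**
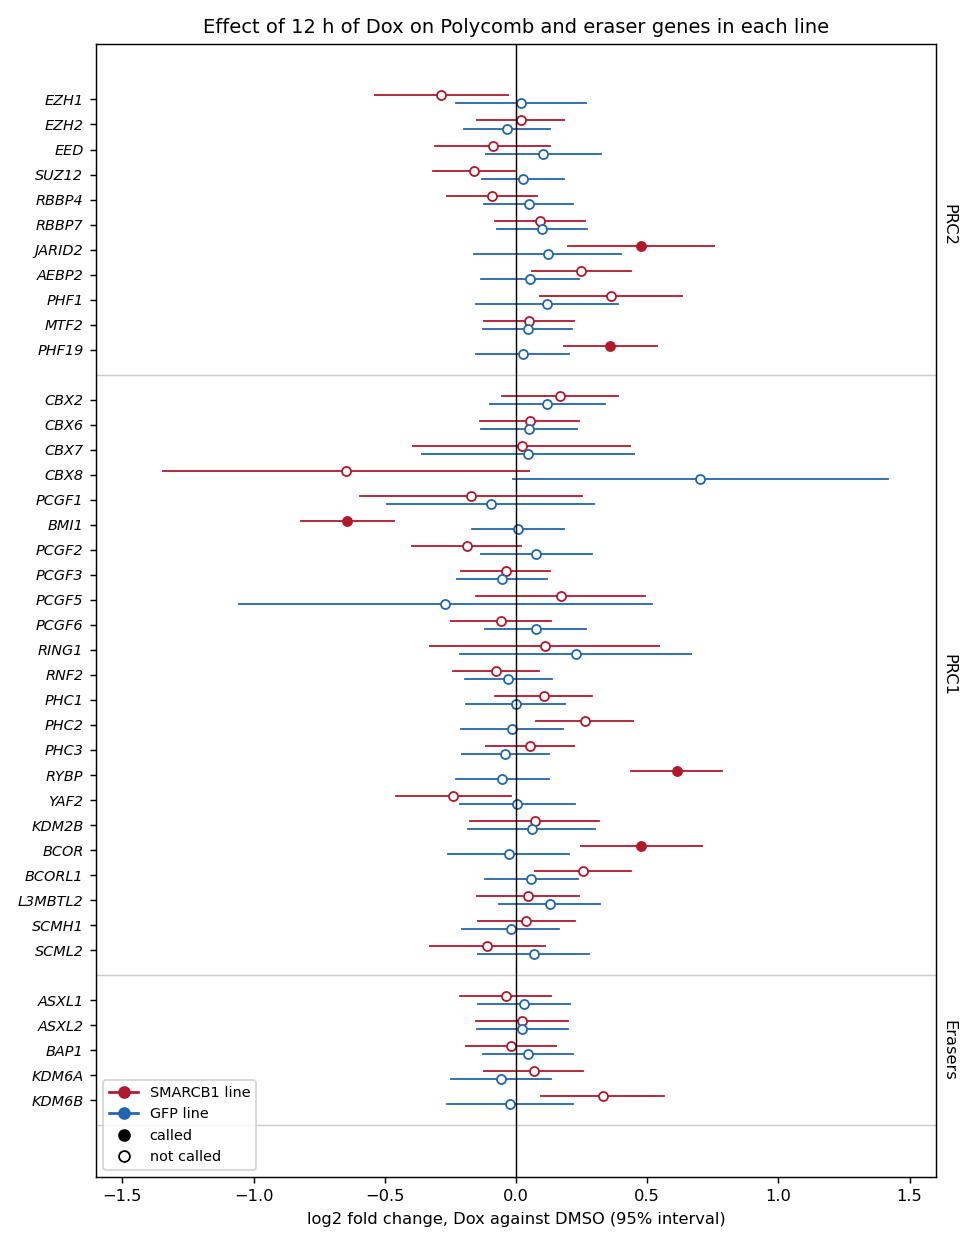
Log2 fold change of each of the 39 tested genes upon Dox in the SMARCB1 line (red) and in the GFP line (blue), with 95% intervals, by complex. Filled dots passed the adjusted p threshold; they are BMI1 below 0 and RYBP, BCOR, PHF19 and JARID2 above 0, and none is blue.

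The core of PRC2 did not pass the test in any of its 6 genes upon SMARCB1 induction, where 14% of all genes did. Its median log2 fold change was -0.09. EZH2 stood at 60.4 and 60.6 CPM with DMSO and 59.1 and 63.5 with Dox in the SMARCB1 line, and at 65.2 and 66.7 with DMSO and 63.8 and 65.0 with Dox in the GFP line. The SMARCB1 groups overlapped, and the 95% interval of the log2 fold change ran from -0.15 to 0.18 around 0.02. A fall of EZH2 RNA beyond -0.15 and a rise beyond 0.18 on the log2 scale thus lay outside it. EZH1 stood at 13.7 and 15.6 CPM with DMSO and 11.2 and 12.8 with Dox in the SMARCB1 line, and at 15.99 and 16.3 with DMSO and 15.5 and 17.2 with Dox in the GFP line. Its SMARCB1 Dox libraries were the lowest of the 8, but the log2 fold change of -0.28 (SE 0.122) had an adjusted p of 0.135 by edgeR. SUZ12, which holds the complex together, stood at 126 and 125 CPM with DMSO and 113 and 112 with Dox in the SMARCB1 line, and at 134 and 129.8 with DMSO and 133 and 135 with Dox in the GFP line. This was likewise the lowest pair of the 8, with a log2 fold change of -0.16 and an adjusted p of 0.185 by edgeR. EED, the subunit that reads methylated H3K27, had 17.9 to 19.7 CPM in SMARCB1 libraries and 16.3 to 17.9 in GFP libraries, and its log2 fold change of -0.09 did not pass the test. The histone chaperones RBBP4 and RBBP7 gave -0.09 and 0.09 on the log2 scale, neither past the threshold.

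The accessory subunits of PRC2, which steer the complex to its sites, had a median log2 fold change of 0.36 over the 5 tested. Of these, 2 were called (40%), where 14% of all genes were. For the difference between the Dox effects of the lines, 0 of the 5 were called, against 4.71% of all genes. PHF19, a Polycomb-like protein of the PRC2.1 form, stood at 45.2 and 47.7 CPM with DMSO and 62.4 and 56.9 with Dox in the SMARCB1 line, and at 44.9 and 43.0 with DMSO and 43.7 and 45.8 with Dox in the GFP line. Both SMARCB1 Dox libraries were above the other 6. The log2 fold change was 0.36 (SE 0.0851, edgeR adjusted p = 0.00587). JARID2, which defines the PRC2.2 form, stood at 9.47 and 10.1 CPM with DMSO and 14.8 and 12.4 with Dox in the SMARCB1 line, and at 9.27 and 10.99 with DMSO and 11.01 and 11.1 with Dox in the GFP line. Again both SMARCB1 Dox libraries exceeded all others, with a log2 fold change of 0.48 (SE 0.134, edgeR adjusted p = 0.0195). Both calls were lost without SMARCB1 DMSO replicate 1, where PHF19 gave 0.32 (edgeR adjusted p = 0.0542) and JARID2 0.43 (0.113), and without SMARCB1 Dox replicate 1, where PHF19 gave 0.29 (0.0776) and JARID2 0.34 (0.212). PHF1, another Polycomb-like protein, had a log2 fold change of 0.36 and AEBP2, the partner of JARID2 in PRC2.2, of 0.25, with edgeR adjusted p of 0.0687 and 0.0751. MTF2, the third Polycomb-like protein, gave 0.05.

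Among the 23 PRC1 genes, 3 were called (13.0%), against 14% of all genes tested. BMI1 stood at 395 and 388 CPM with DMSO and 232 and 269.6 with Dox in the SMARCB1 line, and at 302 and 293 with DMSO and 309.7 and 288 with Dox in the GFP line. SMARCB1 DMSO was thus the highest group and SMARCB1 Dox the lowest, with no overlap between any SMARCB1 library and the GFP libraries. The log2 fold change upon SMARCB1 induction was -0.64 (SE 0.0849, 95% interval -0.82 to -0.47, edgeR adjusted p = 1.66e-05), and that in the GFP line was 0.01. Exon bases of BMI1 are shared in part (1000 of 4395) with the COMMD3-BMI1 readthrough gene on the same strand, which had 1 to 10 reads per library. Reads that lie wholly within bases of both genes are ambiguous in the study's counting mode and are assigned to neither. These few reads therefore cannot measure readthrough, and its part in the BMI1 values was not tested. COMMD3, the neighbour upstream of BMI1, had a log2 fold change of -0.36 (edgeR adjusted p = 0.0573). The other PCGF genes, whose proteins give each PRC1 complex its identity, gave log2 fold changes between -0.19 (PCGF2) and 0.17 (PCGF5), none past the threshold. As a share of the 6 PCGF genes per kilobase of exon, BMI1 made up 74.2% ± 0.0887 (SD, n = 2) with DMSO and 65.9% ± 3.23 with Dox in the SMARCB1 line, against 74.1% ± 0.187 and 73.9% ± 1.28 in the GFP line. The summed level of all 23 PRC1 genes went from 229 ± 0.507 to 203 ± 9.13 CPM per kb in the SMARCB1 line. In the GFP line it was 201 ± 0.847 and 203 ± 2.93. BMI1 is part of this sum, and its mean in the SMARCB1 line went from 89.1 to 57.1 CPM per kb. That fall was larger than the fall of the sum, so the sum does not show a fall of PRC1 genes in general. Of the 23 genes, 14 had a positive log2 fold change upon SMARCB1 induction and 9 a negative one.

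RYBP stood at 47.8 and 44.9 CPM with DMSO and 69.3 and 72.3 with Dox in the SMARCB1 line, and at 47.5 and 44.002 with DMSO and 43.1 and 45.2 with Dox in the GFP line. The SMARCB1 Dox libraries stood alone above the other 6, which lay close together. The log2 fold change was 0.61 (SE 0.0839, 95% interval 0.44 to 0.79, edgeR adjusted p = 2.62e-05), against -0.05 in the GFP line. YAF2, the paralog that takes the place of RYBP, gave -0.24 (edgeR adjusted p = 0.150). Of the summed level of the pair per kilobase, RYBP made up 72.4% ± 0.351 (SD, n = 2) with DMSO and 82.5% ± 0.264 with Dox in the SMARCB1 line, against 73.8% ± 0.602 and 73.0% ± 2.34 in the GFP line. BCOR, the scaffold of the PCGF1 form of variant PRC1, stood at 43.7 and 47.3 CPM with DMSO and 56.0 and 70.8 with Dox in the SMARCB1 line, and at 46.3 and 55.05 with DMSO and 45.6 and 53.7 with Dox in the GFP line. Both SMARCB1 Dox libraries were above the other 6, replicate 1 narrowly. The log2 fold change was 0.48 (SE 0.111, edgeR adjusted p = 0.00518), and the call was lost without SMARCB1 Dox replicate 2, with 0.30 (0.118).

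The other PRC1 genes did not pass the test upon SMARCB1 induction. RNF2, the main ubiquitin ligase subunit, stood at 124 and 123 CPM with DMSO and 112 and 122 with Dox in the SMARCB1 line, and at 107 and 104 with DMSO and 107 and 100.3 with Dox in the GFP line, with a log2 fold change of -0.08 (95% interval -0.24 to 0.09). RING1, its paralog, stood at 2.92 and 4.31, 3.65 and 4.18, 2.72 and 3.44, and 3.61 and 3.63 CPM in the same order of groups. RNF2 therefore held 93.0% to 94.1% of the pair per kilobase of exon in the group means. PHC2, a polyhomeotic subunit that polymerises canonical PRC1, and BCORL1, the paralog of BCOR, came close to the threshold, with log2 fold changes of 0.26 and 0.26 and edgeR adjusted p of 0.0530 and 0.0558. CBX8, a chromodomain subunit at 1.52 and 1.65 CPM in SMARCB1 DMSO and 0.927 and 1.09 in SMARCB1 Dox, gave -0.65 with a 95% interval from -1.35 to 0.05, which is too wide to place it. CBX2, CBX6 and CBX7, the other chromodomain subunits, gave 0.17, 0.05 and 0.02. PHC1, PHC3, KDM2B, L3MBTL2, SCMH1 and SCML2, which are further PRC1 subunits and partners, lay between -0.11 and 0.11.

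None of the 5 eraser genes tested was called upon SMARCB1 induction by edgeR or by DESeq2, where 14% and 13% of all genes were. Before adjustment, 1 of the 5 had a p under 0.05 by edgeR, against 26% of all genes. KDM6B, an H3K27 demethylase that responds to many stimuli, stood at 31.2 and 29.97 CPM with DMSO and 37.5 and 39.4 with Dox in the SMARCB1 line, and at 23.7 and 24.4 with DMSO and 19.9 and 27.4 with Dox in the GFP line. SMARCB1 Dox was the highest group, and the log2 fold change of 0.33 (SE 0.113) had an adjusted p of 0.0549 by edgeR. KDM6B was called as higher under 6 of the 18 alternatives, scaling to library totals among them, and its adjusted p ran from 0.00720 to 0.276 over all 18. KDM6A, the other H3K27 demethylase, stood at 35.6 and 34.2 CPM with DMSO and 35.7 and 37.5 with Dox in the SMARCB1 line, and at 34.5 and 34.1 with DMSO and 35.0 and 31.0 with Dox in the GFP line, with a log2 fold change of 0.07. BAP1, the H2A deubiquitinase, stood at 63.1 and 65.0, 64.0 and 62.4, 54.6 and 53.7, and 53.0 and 58.7 CPM in the same order, with -0.02 upon SMARCB1 induction. ASXL1 and ASXL2, its partners, gave -0.04 and 0.02.

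**Figure D3:**
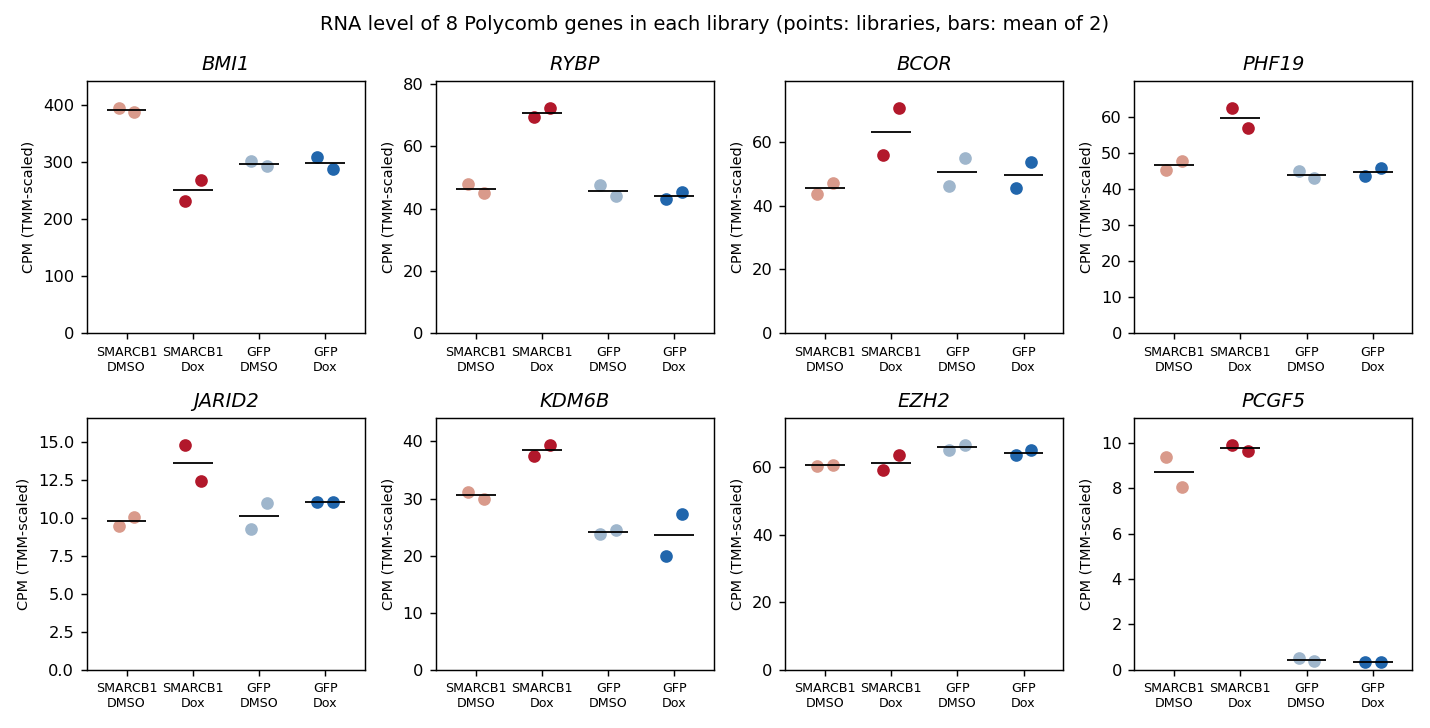
RNA level of 8 Polycomb and eraser genes in each of the 8 libraries, in CPM from 0, with a bar at the mean of the 2 libraries of a group. BMI1 is lowest and RYBP, BCOR, PHF19, JARID2 and KDM6B are highest in SMARCB1 Dox, EZH2 lies between 59.1 and 66.7 CPM in every library, and PCGF5 is at most 0.503 CPM in the GFP line.

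The difference between the Dox effects of the lines was tested as an interaction. It passed for 2 of the 39 genes (5.13%), 1 higher and 1 lower, against 4.71% of all genes (3.07% higher and 1.64% lower). DESeq2 called 2 of the 39 as well, against 4.77% of its genes. For BMI1 the effect in the SMARCB1 line was lower by -0.65 (SE 0.120) than in the GFP line, with an edgeR adjusted p of 0.00210. For RYBP it was higher by 0.66 (SE 0.119), with an edgeR adjusted p of 0.00163. BMI1 and RYBP kept their calls both in the SMARCB1 line and in this difference under every alternative run. For BCOR the difference was 0.51 (edgeR adjusted p = 0.0724), for PHF19 0.33 (0.138), for JARID2 0.35 (0.385) and for KDM6B 0.35 (0.276), so that for these 4 genes a difference between the lines was not shown.

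Before induction the lines already differed in their Polycomb RNAs, which the comparison of SMARCB1 DMSO with GFP DMSO addresses. It shares the SMARCB1 DMSO libraries with the comparison upon SMARCB1 induction, so the values of both are not independent. Of the 39 genes, 18 were called by edgeR (46.2%), 11 higher and 7 lower in SMARCB1 DMSO, against 32% of all genes (16.3% higher and 15.7% lower). With scaling to library totals in place of TMM the number was again 18, but 7 were higher and 11 lower. That scaling shifted the median over all genes from 0.01 to -0.10 on the log2 scale, and PCGF6, RNF2, BAP1 and KDM6B then lost their calls as higher, whereas EZH2, RBBP7, KDM2B and L3MBTL2 were called lower. SMARCB1 DMSO and GFP DMSO did not overlap in 16 genes as higher and in 13 as lower, where 33.1% and 31.6% of all genes did so. The markers of the rhabdoid line moved in the same comparison, all 3 past the threshold by edgeR. VIM was higher by 0.86 on the log2 scale (adjusted p = 2.73e-08), and KRT8 and KRT18 gave -0.63 and -0.55 (1.34e-05 and 1.74e-05). Their part in the Polycomb differences was not tested. In this comparison 12 of 23 PRC1 genes were called (52.2%), 4 of 5 eraser genes (80%) and 2 of 11 PRC2 genes (18.2%), against 32% of all genes.

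PCGF5 gave the largest difference between the lines among the 39 genes. In the SMARCB1 line it had 273 and 265 reads with DMSO and 353 and 337 with Dox, and in the GFP line 17 and 14 with DMSO and 11 and 13 with Dox, or 9.37 and 8.04, 9.92 and 9.64, 0.503 and 0.365, and 0.357 and 0.355 CPM. All SMARCB1 libraries were far above all GFP libraries, and Dox moved neither line past the threshold. The log2 fold change between the lines without Dox was 4.32 (95% interval 3.85 to 4.80, edgeR adjusted p = 1.08e-12). PCGF3, which forms a variant PRC1 related to that of PCGF5, stood at 71.5 and 71.7 CPM in SMARCB1 DMSO and 52.3 and 48.1 in GFP DMSO, and its log2 fold change was 0.51 (edgeR adjusted p = 3.69e-05). PCGF2, the paralog of BMI1, stood at 27.7 and 26.2 CPM against 20.4 and 20.3, and PCGF6 at 29.7 and 31.2 against 24.6 and 24.7, with log2 fold changes of 0.40 and 0.31. BMI1 was higher by 0.40 (edgeR adjusted p = 0.000848) and COMMD3 by 0.45 (0.00756). Hence 5 of the 6 PCGF genes (83.3%) were called higher in SMARCB1 DMSO, against 16.3% of all genes. The exception was PCGF1 at -0.39 (edgeR adjusted p = 0.142). PCGF6 lost its call with scaling to library totals and without SMARCB1 DMSO replicate 2 or either GFP DMSO replicate. Only 38.5% of the exon bases of PCGF2 and 76.8% of those of PCGF3 are unshared. The rest overlap genes on the opposite strand, and the part of those genes in these values was not tested.

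The polyhomeotic genes differed in opposite directions between the lines. PHC2 stood at 45.1 and 51.7 CPM with DMSO and 59.2 and 57.0 with Dox in the SMARCB1 line, and at 28.99 and 26.96 with DMSO and 27.5 and 27.8 with Dox in the GFP line, with a log2 fold change between the lines without Dox of 0.79 (edgeR adjusted p = 4.74e-07). PHC3 stood at 141 and 129.97, 135 and 147, 186 and 182, and 176 and 181 CPM in the same order, with -0.44 (edgeR adjusted p = 0.000179). PHC1 stood at 36.1 and 33.9, 36.9 and 38.4, 26.4 and 26.96, and 26.2 and 27.1 CPM, with 0.39 (edgeR adjusted p = 0.00179). In none of the 3 did the lines overlap. Per kilobase of exon, PHC2 made up 38.9% ± 3.55 (SD, n = 2) of the 3 PHC genes in SMARCB1 DMSO and 24.9% ± 0.810 in GFP DMSO, and PHC3 made up 35.7% ± 2.32 and 53.6% ± 0.0628.

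**Figure D4:**
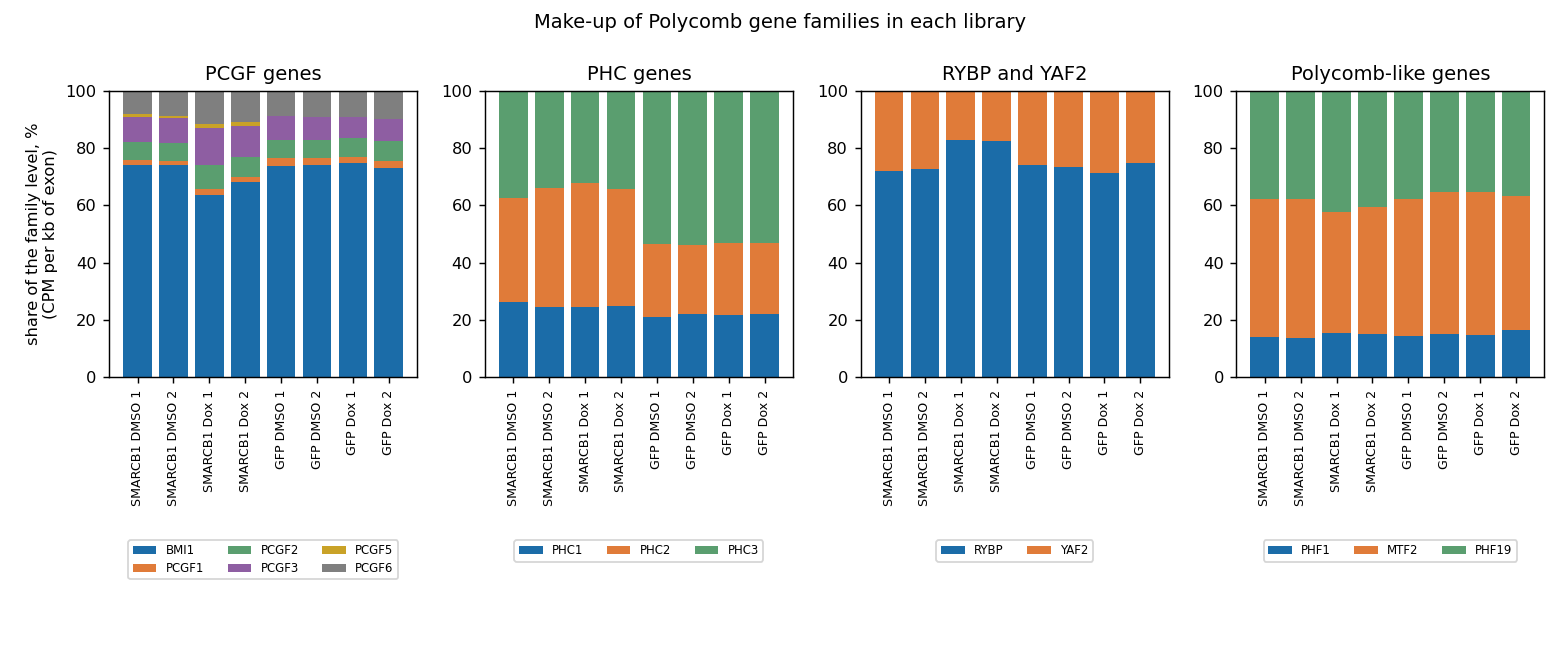
Share of each gene in the summed level of its family, in percent of CPM per kb of exon, for each of the 8 libraries. RYBP gains share and BMI1 loses share in both SMARCB1 Dox libraries, and PHC2 and PHC3 hold different shares in the SMARCB1 and GFP lines.

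Other PRC1 genes were lower in SMARCB1 DMSO than in GFP DMSO. BCORL1 stood at 32.9 and 35.2 CPM against 48.9 and 49.6 (log2 fold change -0.53, edgeR adjusted p = 5.11e-05), CBX6 at 68.4 and 67.6 against 88.1 and 102 (-0.49, 0.000203) and SCML2, a Polycomb protein best known from germ cells, at 18.3 and 19.1 against 24.1 and 26.6 (-0.44, 0.00204). None of the 3 overlapped between these groups. RNF2 was higher by 0.22 (edgeR adjusted p = 0.0379), a call lost under 9 of the 18 alternatives, among them leaving out any 1 of the 4 DMSO libraries. In PRC2, RBBP4 stood at 228 and 253 CPM against 301 and 299.99 (-0.32, edgeR adjusted p = 0.00411) and AEBP2 at 29.8 and 27.6 against 34.7 and 35.9 (-0.30, 0.0141). Without SMARCB1 DMSO replicate 1 the call for RBBP4 was lost (edgeR adjusted p = 0.0582), and that for AEBP2 was lost without SMARCB1 DMSO replicate 2 or GFP DMSO replicate 2 (at most 0.108). The catalytic genes EZH2 and EZH1 gave -0.12 and -0.14, and SUZ12 and EED -0.07 and 0.21, none past the threshold.

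Erasers differed between the lines in 4 of 5 genes by edgeR (80%), against 32% of all genes. ASXL1 stood at 100.8 and 87.3 CPM with DMSO and 93.1 and 89.96 with Dox in the SMARCB1 line, and at 65.5 and 69.2 with DMSO and 69.5 and 68.0 with Dox in the GFP line, and its log2 fold change was 0.48 (edgeR adjusted p = 0.000111). ASXL2 went the other way, at -0.30 (edgeR adjusted p = 0.00827), so that ASXL1 made up 39.6% of the pair per kilobase in SMARCB1 DMSO and 27.6% in GFP DMSO. KDM6B and BAP1 were higher by 0.34 and 0.24 (edgeR adjusted p = 0.0252 and 0.0287). Leaving out libraries of these groups ended some of these calls: BAP1 was not called without any 1 of the 4 DMSO libraries, KDM6B not without SMARCB1 DMSO replicate 1 or either GFP DMSO replicate, nor with DESeq2, and ASXL2 not without SMARCB1 DMSO replicate 1 or GFP DMSO replicate 2. KDM6A gave 0.03.

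**Figure D5:**
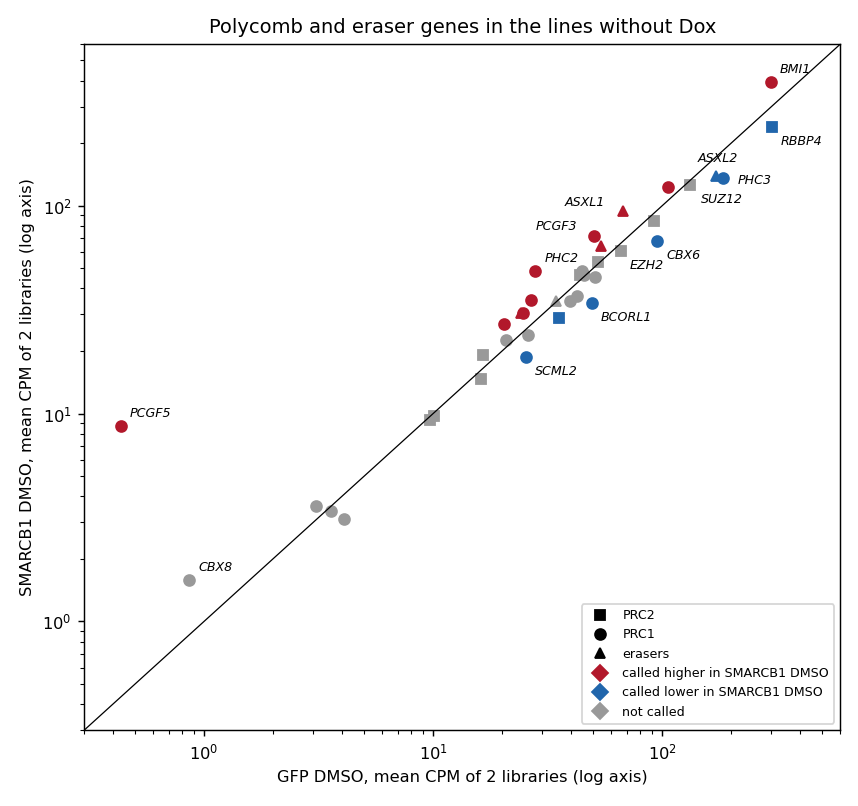
Mean CPM of each of the 39 tested genes in GFP DMSO (horizontal) and SMARCB1 DMSO (vertical), both on log axes, with the line of equality. Red symbols were called higher and blue symbols lower in SMARCB1 DMSO; PCGF5 stands farthest from the line, at 0.434 against 8.70 CPM.

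Further Polycomb proteins and partners outside the 41 were counted for comparison. Of 31 tested, 3 rose and 3 fell upon SMARCB1 induction (19.4% against 14% of all genes), or 4 and 1 with scaling to library totals and 3 and 1 without SMARCB1 DMSO replicate 1 or SMARCB1 Dox replicate 1. SAMD11, a SAM-domain protein reported with PRC1, rose by 1.42, SFMBT2, an MBT-domain Polycomb protein, by 0.89, and L3MBTL3, another MBT-domain protein, fell by 0.67 on the log2 scale (edgeR adjusted p = 1.07e-05, 1.40e-05 and 6.16e-05). All 3 also differed between the Dox effects of the lines. Between the lines without Dox, 4 were higher and 6 lower (32.3% against 32% of all genes), or 3 and 9 with scaling to library totals. SAMD11 was at -1.81, L3MBTL3 at -1.06 and SFMBT2 at 0.70. Of the 19 genes of the H3K4 methyltransferase and H3K27 acetyltransferase complexes, which oppose Polycomb, edgeR and DESeq2 called 0 upon SMARCB1 induction. Of all genes they called 14% and 13%. By edgeR, 2 of the 19 had an unadjusted p under 0.05, against 26% of all genes, whereas 1 was called higher with scaling to library totals. Between the lines 2 were higher and 1 lower in SMARCB1 DMSO (15.8% against 32% of all genes), namely KMT2A (0.35), PAXIP1 (0.30) and WDR82 (-0.39). With scaling to library totals it was 1 and 5.

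Developmental regulators known as PRC2 targets in embryonic stem cells were mostly silent here. Of 53 listed, 11 had 0 reads in all 8 libraries and 23 could be tested. Upon SMARCB1 induction 7 of the 23 rose and 0 fell, where 8.33% of all genes rose, with a median log2 fold change of 0.29 over the 23. Without SMARCB1 DMSO replicate 1 or SMARCB1 Dox replicate 1, 4 rose. For the difference between the Dox effects of the lines, 1 of the 23 (WNT6) was called, or 4.35%, against 4.71% of all genes. PAX6, an eye and brain factor, rose by 1.49 (edgeR adjusted p = 0.0162), GATA6, an endoderm and heart factor, by 1.31 (1.17e-05) and HAND1, a heart and placenta factor, by 0.82 (0.00399). GATA6 was at 4.22 and 3.94 CPM in SMARCB1 DMSO and 9.89 and 10.3 in SMARCB1 Dox, and it was among the genes that the study followed, so it is not an independent choice. The difference between the Dox effects did not pass for PAX6 (1.83, edgeR adjusted p = 0.288), GATA6 (0.95, 0.108) or HAND1 (1.01, 0.164). Each GFP library had only 3 to 6 reads of PAX6, 26 to 34 of GATA6 and 14 to 26 of HAND1. A difference is thus not shown to be absent. Without Dox, all 3 were already called higher in SMARCB1 DMSO than in GFP DMSO, by 2.08, 2.41 and 2.76 on the log2 scale. The call for PAX6, with 16 and 25 reads in SMARCB1 DMSO, was lost without SMARCB1 DMSO replicate 1 or SMARCB1 Dox replicate 2 and with DESeq2. No gene of these 3 lists was called upon Dox in the GFP line by edgeR, and none had an unadjusted p under 0.05 there. Between the lines without Dox, 8 of the 23 were higher and 6 lower in SMARCB1 DMSO (60.9% against 32% of all genes). OTX2 and PAX2, head and kidney factors, were lower by -3.48 and -3.06.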

How the data were processed

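RNA levels were measured in 8 libraries of G401 cells in 4 groups of 2. The authors aligned reads with STAR to hg38 and deposited raw counts per gene made with HTSeq over exons in intersection-strict mode with GENCODE v42; tool versions and the strand option are not given in the sources used here, so reads of overlapping and antisense genes cannot be told apart. The labels name ribosome profiling kits for the RNA libraries and the study's methods a directional total RNA kit. Entries that name no gene (27.0% to 29.3% of reads) were left out. The ribosome profiling libraries were not analysed here.

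Members were matched by Ensembl identifier to GENCODE v44, which also gave positions and exon lengths. Counts were tested with edgeR 4.0.16 (R 4.3.3, TMM, default expression filter, quasi-likelihood, all 8 libraries, 1 mean per group), checked on simulated data, with a Benjamini-Hochberg threshold of 0.05 over all 15931 genes. Standard errors were the absolute log2 fold change divided by the root of F. Alternatives were DESeq2 1.42.0, its size factors, library totals, other filters, only the groups compared, no mitochondrial genes, GC correction (added after seeing the data), a replicate block, and each library left out. Members and lists were chosen with earlier results of these data known. Given by library were members called with an absolute log2 fold change of at least 0.3 and the catalytic and defining genes; of other lists, up to 3 called genes per comparison with a mean of at least 1 CPM. The 14 members that share exon bases with another gene are less certain, 7 of them over 10%. One gene of the cell type marker list is not reported here.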

Additional observations from a re-analysis of the deposited data

Results flagged for a closer look

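Dox effects that differed between the SMARCB1 and the GFP line by edgeR's interaction test were flagged. Among the Polycomb genes these were BMI1 (-0.65, adjusted p = 0.00210) and RYBP (0.66, adjusted p = 0.00163), whose values stand in the report. Among the other Polycomb proteins, the difference was 1.53 for SAMD11 (adjusted p = 0.000437), at 2.50 and 2.73 CPM with DMSO and 5.90 and 8.18 with Dox in the SMARCB1 line and 8.50 to 9.42 in the GFP libraries. It was 0.81 for SFMBT2 (adjusted p = 0.00656), at 16.4 and 16.7 CPM with DMSO and 27.7 and 33.6 with Dox in the SMARCB1 line and 10.1 to 11.4 in the GFP libraries. It was -0.69 for L3MBTL3 (adjusted p = 0.00315), at 22.7 and 22.7 CPM with DMSO and 13.7 and 14.8 with Dox in the SMARCB1 line and 44.7 to 49.8 in the GFP libraries. Among the developmental regulators, WNT6, a secreted signalling protein, differed by 3.42 (adjusted p = 0.0150), with 0 and 3 reads with DMSO and 29 and 11 with Dox in the SMARCB1 line and 97 to 116 in each GFP library. The ratio of WNT6 in SMARCB1 Dox to SMARCB1 DMSO was 11.7, with a 95% counting interval of 3.74 to 59.3, and its call was lost without SMARCB1 DMSO replicate 1 (2.55) or SMARCB1 Dox replicate 1 (2.58).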

How the results depend on the processing

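Upon SMARCB1 induction, 10 members of the 41-gene list (9 higher, 1 lower) instead of 5 were called with scaling to library totals and 10 (9 and 1) with a replicate block, where 25.6% of the members stood against 19.8% of all genes. Both added AEBP2, PHF1, PHC2, BCORL1 and KDM6B. Leaving out 1 library gave 3 to 6 members, 3 without SMARCB1 DMSO replicate 1 or SMARCB1 Dox replicate 1. The remaining alternatives gave 5 to 7 members. For the difference between the Dox effects, 2 to 3 members were called, the third being BCOR or, without GFP Dox replicate 2, KDM6B. Between the lines 12 to 21 members were called, 12 without GFP DMSO replicate 2, and 11 of the 18 kept their call under all 18 alternatives. No call in members reversed under any alternative, and Dox in the GFP line gave 0 members in all.

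The labels give all groups the same replicate numbers but do not say what they share. Deviations of same-numbered libraries correlated at 0.136 to 0.470 over 8523 genes in each of the 6 group pairs. With the replicate block, calls among all genes went from 2234 to 3149 upon SMARCB1 induction, from 750 to 1282 for the difference and from 5105 to 5977 between the lines, and members from 2 to 3 and from 18 to 20 in the last 2 comparisons. Upon SMARCB1 induction the block also called 1 higher and 1 lower of the 19 genes of the H3K4 methyltransferase and H3K27 acetyltransferase complexes, and 1 higher with the block and GC correction. Of all genes, leaving out 1 library gave 1284 to 2088 calls upon SMARCB1 induction, 390 to 805 for the difference and 3452 to 5258 between the lines. With 2 libraries a group, members such as CBX8, at about 1 CPM, have wide intervals, and a change that was not called is not shown to be absent.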
